A study of Mus musculus with 44 samples.

Results

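The genes described here are 27 genes of GABA signalling and interneuron identity, taken from a fixed list of symbols. They cover GABA receptor subunits, GABA synthesis and transport, chloride transport, the inhibitory synapse and interneuron identity. All 27 were found among the 27179 genes of the count files, and all 27 passed the filter on low counts in every comparison. RNA from dorsal hippocampus of young adult mice was sequenced in 36 libraries, 6 for each of 2 genotypes at 3 times. WT mice were compared with homozygous Kdm5bDARID/DARID mice (mutants), whose allele lacks the ARID domain of the histone H3K4 demethylase KDM5B in every tissue and throughout life. Mice were either naive (0 h, taken from the home cage) or were collected 1 or 3 h after contextual fear conditioning, in which foot shocks are given in an unfamiliar chamber. Each group held 3 libraries labelled male and 3 labelled female, and each mouse gave 1 library at 1 time. The study asked how gene expression at baseline and after learning depends on KDM5B, and the values below describe the 27 genes in that design.

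GABA is the main inhibitory transmitter of the adult brain. It is made from glutamate by the decarboxylases GAD67 (Gad1) and GAD65 (Gad2), is loaded into vesicles by the transporter VGAT (Slc32a1), and is broken down by GABA transaminase (Abat). It opens chloride channels built from GABA-A subunits and activates the metabotropic GABA-B receptor, a dimer of Gabbr1 and Gabbr2. In the hippocampus the cells that release it are interneurons scattered among far more numerous pyramidal and granule cells. Interneurons are born in the ganglionic eminences under the control of Dlx homeobox genes, and Lhx6 and Sox6 then specify those of the medial eminence, which include the cells that express parvalbumin (Pvalb). In bulk tissue, fewer cells of a type and less RNA per cell cannot be told apart.

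Library totals ran from 40274435 to 107000233 counts. Counts of Xist and Y-linked genes differed from the labelled sex in 2 libraries, which stayed under their labels. WT male 1 at 1 h had 51186 Xist and 0 Y-linked counts, and mutant female 2 at 3 h had 36 and 10239. Whether these 2 were exchanged, which would also change their genotype and time, was not tested. Kdm5b itself was measured at 86.5 ± 2.84, 90.5 ± 5.93 and 89.2 ± 2.29 CPM (counts scaled to a common library size; SD, n = 6) at 0, 1 and 3 h in WT, and at 80.5 ± 3.96, 86.6 ± 3.39 and 84.3 ± 5.42 in mutants. A count over the whole gene includes the exons outside the deletion and so does not check the genotype labels. All 4 CA1 markers, all 4 CA3 markers and all 4 dentate granule markers were detected in every library, as were all markers of striatum (7), thalamus (5), neocortex (5), choroid plexus (7), oligodendrocytes (6) and astrocytes (5). None of these lists was at 0 in any library.

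Levels of thalamus markers set 5 libraries apart. The summed level of Tcf7l2, Prkcd, Tnnt1, Slitrk6 and Ramp3 was 75.9 to 121.8 CPM in these 5 and 32.2 to 66.2 CPM in the other 31. Prkcd carried most of it, with 59.2 to 107.7 CPM in the 5 libraries and 22.6 to 53.0 CPM in the rest, whereas the other markers of the list overlapped between both sets. All 5 were labelled mutant: naive male 1, male 3 and female 2, female 1 at 1 h, and female 2 at 3 h. The last is a library of discordant sex. Comparisons below that include any of these 5 libraries were also fitted without them, a choice made after the data were seen.

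Levels of the 27 genes spanned a wide range per exon length. Gabbr1 was highest, with 96.5 ± 4.28 CPM per kb (SD, n = 36), followed by Slc12a5, the neuronal chloride exporter KCC2, with 89.6 ± 4.35 CPM per kb, and Gabra5, a subunit of extrasynaptic GABA-A receptors abundant in CA1, with 60.5 ± 4.68 CPM per kb. Next came the postsynaptic adhesion molecule Nlgn2 (49.5 CPM per kb) and the subunit Gabrb2 (47.9 CPM per kb). The chloride importer NKCC1 (Slc12a2) lay at 11.6 CPM per kb, below KCC2. Genes of GABA synthesis, vesicle loading and breakdown were at 43.7 (Gad1), 33.4 (Gad2), 33.5 (Slc32a1) and 34.1 (Abat) CPM per kb. The last 3 of these did not differ beyond their spread over libraries. Pvalb was the highest of the interneuron identity genes, with 31.6 CPM per kb. The other identity genes ran from 0.978 (Dlx6) to 3.62 (Lhx6) CPM per kb, and Gabrg3, at 0.377, was the lowest of all 27. Gabra2, an alpha subunit of synaptic receptors, and Gabrd, the delta subunit of extrasynaptic receptors, lay between, at 18.9 and 9.78 CPM per kb, and neither was under an unadjusted p of 0.05 in any comparison below. Even Dlx6 had 88 to 334 counts per library, and none of the 27 fell below 88 counts in any library.

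**Figure D1:**
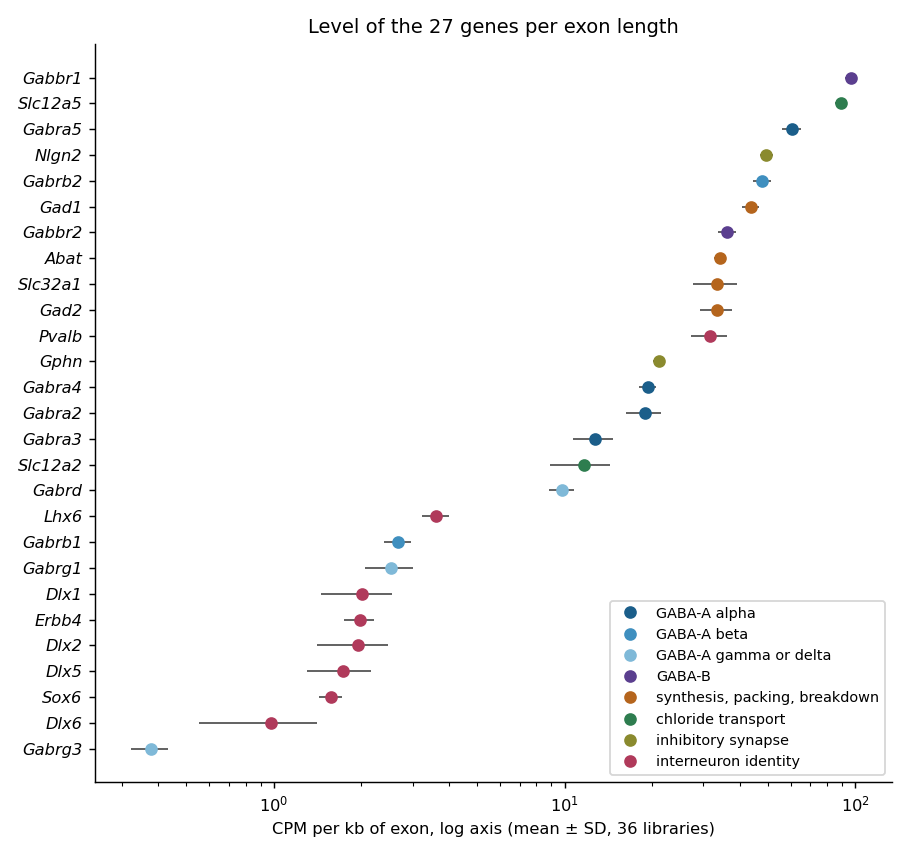
Mean level of each of the 27 genes in CPM per kb of GENCODE exon (log axis) over 36 libraries, with bars for the SD, coloured by role. Gabbr1 and Slc12a5 lie at the top with 96.5 and 89.6 CPM per kb, while the Dlx genes, Sox6 and Erbb4 lie near 2 or below.

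Genes also differed in how much they varied between mice of 1 group. The within-group coefficient of variation was 4.16% for Slc12a5, 4.59% for Gabbr1 and Gphn, the scaffold gephyrin, and 4.62% for Abat. It was 38.2% for Dlx6, 26.9% for Dlx1, 26.0% for Dlx2 and 25.4% for Dlx5, followed by 24.1% for Slc12a2. Lhx6 (11.3%) and Pvalb (12.4%), which are restricted to interneurons as well, varied less than the Dlx genes. Slc12a2 is also a gene of the choroid plexus, whose 7 markers summed to between 43.2 and 8042 CPM across libraries, and the part of that tissue in the Slc12a2 values was not tested.

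Of the 5 libraries high in thalamus markers, 4 held the highest Dlx values of the series. In naive mutants, Dlx1 was at 16.7, 8.21 and 16.1 CPM in males 1, 2 and 3 and at 11.9, 17.0 and 8.58 CPM in females 1, 2 and 3. Males 1 and 3 and female 2 are thus the high ones, and they overlap with no WT library, the highest of which had 13.1 CPM. Dlx1 (gene ID 13390, GENCODE gene at chr2:71528113-71533981 on GRCm38) overlaps Dlx1as on the opposite strand, and Dlx6 (gene ID 13396, chr6:6863334-6868568) overlaps Dlx6os2 likewise, so their counts may hold reads of these partners. Dlx2, the neighbour of Dlx1 on chromosome 2, was at 10.6, 5.26 and 8.43 CPM in the naive mutant males and at 6.10, 8.15 and 4.24 CPM in the females. Dlx6 was at 4.74, 2.26 and 5.17 CPM in those males and at 2.43, 4.20 and 1.93 CPM in the females, with the same 3 libraries on top. Mutant female 2 at 3 h exceeded all of them for Dlx1 (22.0 CPM), Dlx5 (8.17 CPM) and Dlx6 (5.67 CPM).

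The vesicle transporter and GAD65 were high in the same libraries as the Dlx genes, while Lhx6 and Pvalb were not. Slc32a1 was at 139.0, 88.8 and 135.6 CPM in the naive mutant males and at 91.1, 120.9 and 86.1 CPM in the females, and the 31 libraries outside the 5 ran from 74.3 to 101.2 CPM. Gad2 was at 235.4, 198.9 and 247.7 CPM in the males and at 193.0, 262.9 and 201.6 CPM in the females. Gabrg1, a GABA-A subunit with a restricted distribution in the brain, was at 31.1, 19.7 and 25.5 CPM in the males and at 17.6, 27.4 and 20.6 CPM in the females. For Gad2, Slc32a1, Gabrg1, Dlx1, Dlx2 and Dlx6, 4 of the 5 libraries lay above all 31 others, and for Dlx5 all 5 did. Gad1 was above the others in 2 of the 5, at up to 385.2 CPM against at most 370.4 CPM, and Abat in 3 of the 5, at up to 297.1 CPM against at most 280.0 CPM. Gabbr2 was below all 31 others in 3 of the 5, at down to 211.4 CPM against at least 217.0 CPM. Lhx6 ran from 13.3 to 17.3 CPM in the 5 and from 14.3 to 22.0 CPM in the 31, and Pvalb from 27.2 to 37.2 CPM and from 24.7 to 40.6 CPM, so neither was high there. Mutant female 1 at 1 h had 85.0 CPM of thalamus markers without high Dlx1 (9.52 CPM) or Gad2 (186.9 CPM). What the thalamus markers and these genes share was not tested.

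**Figure D2:**
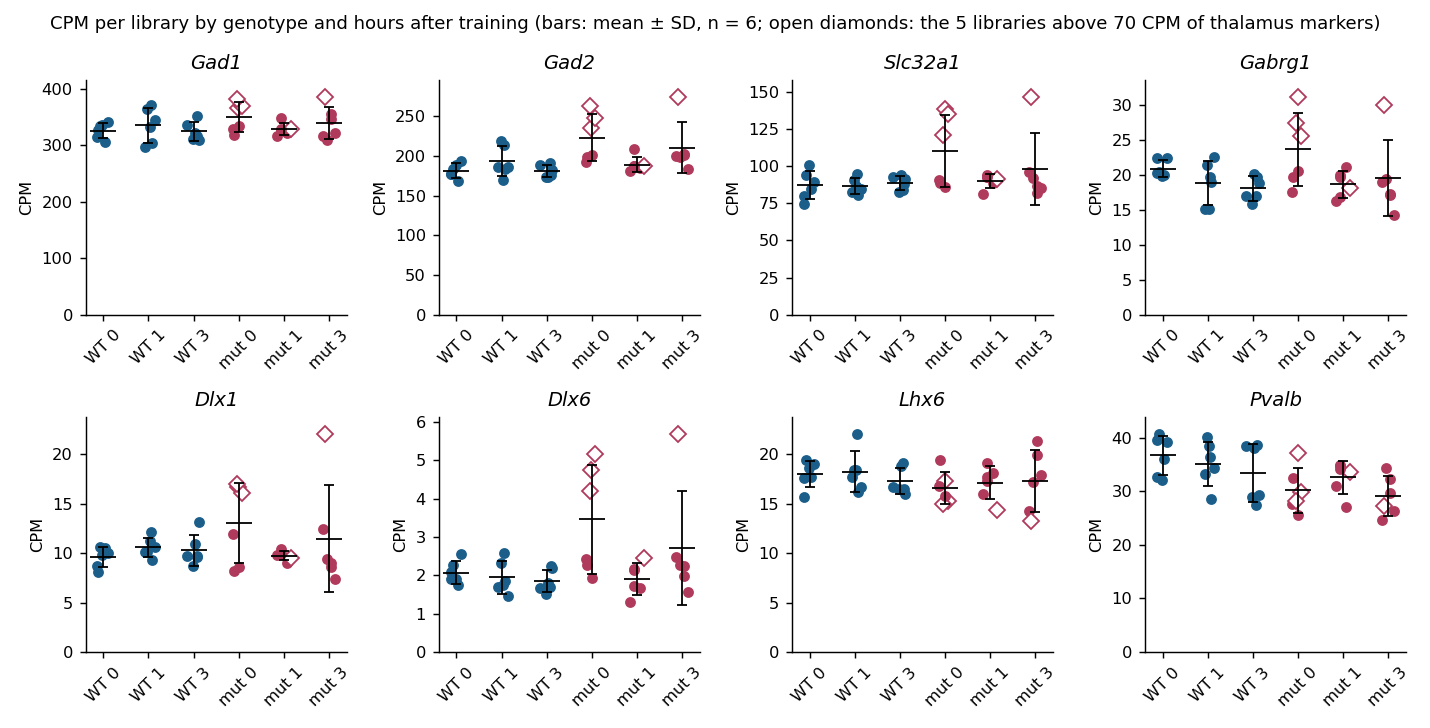
CPM of 8 of the genes in each library, by genotype (WT blue, mutant red) and hours after training, with the mean and SD of 6 libraries in black and open diamonds for the 5 libraries above 70 CPM of thalamus markers. In naive mutants and in mutants at 3 h the high values of Gad2, Slc32a1, Gabrg1, Dlx1 and Dlx6 are diamonds, while for Lhx6 and Pvalb the diamonds lie within the range of the other libraries or, for Lhx6 in the mutant at 3 h, below it.

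**Figure D3:**
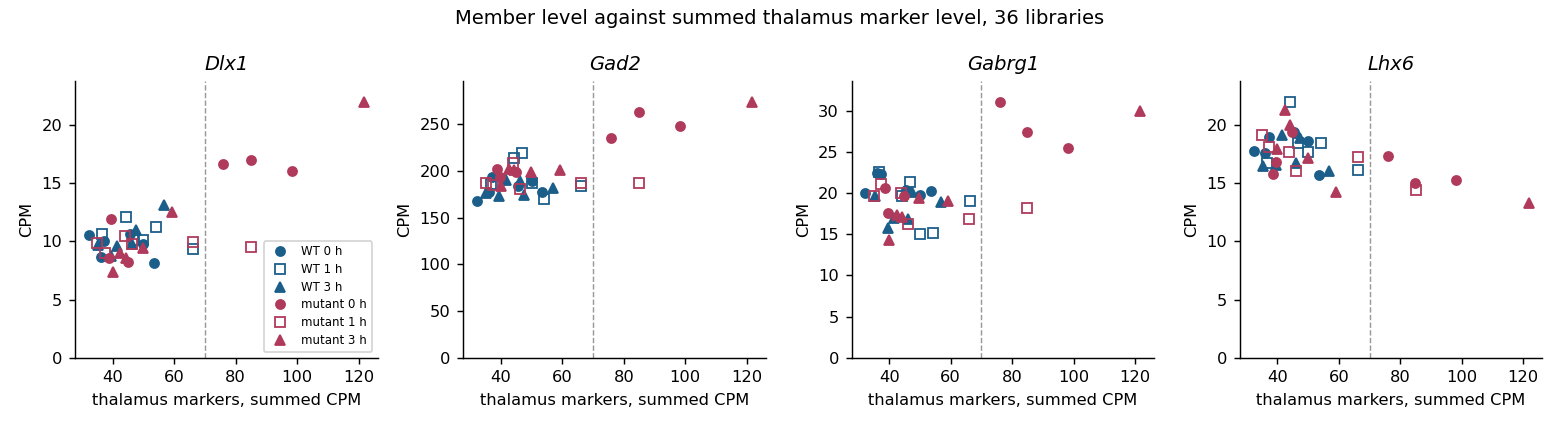
CPM of Dlx1, Gad2, Gabrg1 and Lhx6 against the summed CPM of 5 thalamus markers, 1 point per library, with a dashed line at 70 CPM. Of the 5 libraries right of the line, 4 exceed all others for Dlx1, Gad2 and Gabrg1, and 1 mutant at 1 h does not.

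Sequences before the start sites of these co-varying genes were compared, since KDM5B acts on a histone mark that is concentrated at CpG-rich promoters. RefSeq promoters on GRCm38.p6 were at hand for 22 of the 27 genes (35 start sites). Over the 250 bases before the start, the 35 windows held a median of 12 CG dinucleotides, against 6 over all 32851 promoters. The genes that were high together in the 4 libraries did not share a CG count: Dlx2 had 24, Dlx1 22, Gad2 13, Slc32a1 12 and Gabrg1 1, and the windows of the 2 Pvalb starts had 4 and 23. The letters TAATTA (its own reverse complement), a core that homeodomain proteins such as the Dlx factors bind, occurred in 1 of the 35 windows, that of Gabrg1, which held 2 overlapping copies, and in 4.84% of all promoters. Windows of 5 genes are shown as examples of rich and poor promoters, 5′ to 3′ on the strand of the gene, with capitals for CG and TAATTA. Dlx2 lies at chr2:71546755-71547004 (minus strand), Slc32a1 at chr2:158610508-158610757 (plus), Gad2 at chr2:22622077-22622204 (plus, cut to the 128 bases before its first GENCODE exon), Pvalb at chr15:78206401-78206650 (minus, the outermost start) and Gabrg1 at chr5:70842618-70842867 (minus).
Dlx2: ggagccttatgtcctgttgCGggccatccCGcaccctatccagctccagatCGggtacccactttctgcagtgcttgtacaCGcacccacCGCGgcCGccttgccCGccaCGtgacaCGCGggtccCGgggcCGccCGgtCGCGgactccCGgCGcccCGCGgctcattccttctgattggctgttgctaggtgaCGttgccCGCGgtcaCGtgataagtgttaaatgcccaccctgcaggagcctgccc
Slc32a1: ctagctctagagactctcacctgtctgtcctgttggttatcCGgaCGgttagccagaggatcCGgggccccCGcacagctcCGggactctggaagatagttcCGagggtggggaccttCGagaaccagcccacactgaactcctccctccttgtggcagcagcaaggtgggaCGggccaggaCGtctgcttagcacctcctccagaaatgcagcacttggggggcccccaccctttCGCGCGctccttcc
Gad2: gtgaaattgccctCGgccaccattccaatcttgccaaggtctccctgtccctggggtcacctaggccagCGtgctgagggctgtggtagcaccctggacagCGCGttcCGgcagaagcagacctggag
Pvalb: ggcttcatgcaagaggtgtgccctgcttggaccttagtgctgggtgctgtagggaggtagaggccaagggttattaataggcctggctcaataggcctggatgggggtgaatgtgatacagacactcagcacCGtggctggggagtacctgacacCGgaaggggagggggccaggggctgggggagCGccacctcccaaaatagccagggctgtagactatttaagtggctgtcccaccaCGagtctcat
Gabrg1: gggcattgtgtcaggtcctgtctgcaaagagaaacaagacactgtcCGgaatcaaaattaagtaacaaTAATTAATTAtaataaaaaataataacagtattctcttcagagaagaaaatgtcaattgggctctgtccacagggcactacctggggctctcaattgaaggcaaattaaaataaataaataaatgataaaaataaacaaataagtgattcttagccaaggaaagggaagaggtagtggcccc

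Between genotypes at 0 h, naive mutants had more Gad2, Slc32a1 and Dlx RNA on average and less Pvalb, but none of the 27 genes passed an adjusted p of 0.05. Gad2 (gene ID 14417, chr2:22622205-22693874) was at 223.2 ± 29.3 CPM in mutants and 181.6 ± 9.11 CPM in WT (SD, n = 6), and 5 of the 6 mutants lay above every WT. Its log2 fold change was 0.29 (SE 0.07, adjusted p = 0.71, edgeR quasi-likelihood test as in all that follows). Pvalb (gene ID 19293, chr15:78191114-78206400), a calcium buffer of fast-spiking interneurons, was at 25.7 CPM in the lowest mutant, 29.0 at the median and 37.2 in the highest, and at 32.2, 37.7 and 40.6 CPM in WT. Of the 6 mutants, 4 were below all WT, and the log2 fold change was -0.29 (SE 0.08, adjusted p = 0.71). Dlx6 differed by 0.72 (SE 0.22, adjusted p = 0.71). Over the list, 7 of 27 genes had an unadjusted p under 0.05, 5 higher (with Dlx1, Dlx2 and Slc32a1) and 2 lower (with Gabbr2), where 6.15% of 17336 genes tested did and 0% (0 genes) passed the adjusted p. DESeq2 gave 0 passing and 7 under 0.05, where 0.0865% and 7.06% of all genes were.

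Without the 3 naive mutants high in thalamus markers, 2 of those 7 were left, Gad2 and Pvalb, where 6.25% of all genes had p under 0.05. Gad2 then differed by 0.13 (adjusted p = 0.794) and Pvalb by -0.35 (adjusted p = 0.606). Of the other 5, Dlx6 was then at 0.14 (adjusted p = 0.952), Dlx2 at 0.07 (adjusted p = 0.977) and Slc32a1 at 0.01 (adjusted p = 0.993). Dlx1 turned from 0.44 to -0.03 (adjusted p = 0.993), and Gabbr2 kept its size (-0.11 in both, adjusted p = 0.827). The mean of the 3 remaining naive mutants was 9.56 ± 2.03 CPM for Dlx1 (SD, n = 3; WT, 9.63) and 88.7 CPM for Slc32a1 (WT, 87.4).

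At 1 h after training, log2 fold changes between genotypes lay between -0.13 and 0.18 for the 27 genes. Gabrb1, a GABA-A beta subunit, was at 36.1, 39.4 and 43.0 CPM (lowest, median, highest) in mutants and at 31.6, 33.6 and 43.3 CPM in WT. The groups overlapped through 1 WT library, and the log2 fold change was 0.18 (SE 0.06, adjusted p = 0.402). Gabrb1 overlaps Gabra4 head to head on the opposite strand, and the strand setting of the counting is not given in the sources used here. Slc12a5 (0.07, SE 0.04, adjusted p = 0.588) and Nlgn2 (-0.06, SE 0.03, adjusted p = 0.664) came next. Gabrb1 was the 1 gene of 27 under an unadjusted p of 0.05, where 8.61% of 17261 genes were, and 0% (0 genes) passed the adjusted p. Without WT male 2, WT male 3 or mutant male 1 at 1 h the count was 2, where 7.56% to 9.04% of all genes were. By DESeq2, 2 of the 27 were under 0.05, where 9.69% of all genes were, and 0 passed, where 0.643% did. Without the 1 mutant library high in thalamus markers Gabrb1 was still the 1 of 27 (0.19, adjusted p = 0.574), where 7.4% of all genes were.

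At 3 h Gad2 was higher in mutants again, at 184.0, 200.7 and 274.2 CPM (lowest, median, highest) against 173.4, 179.0 and 190.7 CPM in WT. All mutants but 1 exceeded every WT, and the log2 fold change was 0.22 (SE 0.08, adjusted p = 0.719). Nlgn2 was at 281.6 ± 10.2 CPM in mutants and 300.6 ± 15.8 CPM in WT, a log2 fold change of -0.09 (SE 0.04, adjusted p = 0.774). Dlx6 differed by 0.53 (SE 0.27, adjusted p = 0.809), and by 0.16 without the 1 mutant library high in thalamus markers. Gad2 and Nlgn2 were the 2 of 27 under an unadjusted p of 0.05, where 6.36% of 17394 genes were, and 0.0115% (2 genes, neither of the 27) passed the adjusted p. DESeq2 gave 2 under 0.05 and 0 passing, where 7.28% and 0.27% of all genes were. Without that library the Gad2 difference was 0.13 (adjusted p = 0.492), and 3 of the 27 were under 0.05, with Gabrb1 added (0.19, adjusted p = 0.539), where 8.06% of all genes were. The count was 4 without mutant female 3 at 3 h, where 6.9% of all genes were, and 1 without WT male 1, male 3 or female 2 or mutant male 2 or male 3 at 3 h, where 4.86% to 7.19% were.

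Over the 3 times together, Pvalb was lower and Gad2 higher in mutants, both short of the threshold. The Pvalb means were 36.7, 35.2 and 33.5 CPM in WT and 30.2, 32.6 and 29.1 CPM in mutants at 0, 1 and 3 h, so the mutant mean was lower at each time although the groups overlapped at all 3. Its log2 fold change was -0.20 (SE 0.06, adjusted p = 0.074), and -0.21 without the 5 libraries (adjusted p = 0.0993). Gad2 differed by 0.16 (SE 0.05, adjusted p = 0.0852), and by 0.07 without the 5 libraries (adjusted p = 0.298). The difference for Dlx6 was 0.42 (SE 0.15, adjusted p = 0.145), and 0.05 without them (adjusted p = 0.873). In all, 7 of 27 genes were under an unadjusted p of 0.05 (5 higher, 2 lower), where 15.2% of 18186 genes were, and 0 of 27 passed the adjusted p, which 1.3% of all genes did. Without the 5 libraries 4 of the 27 were under 0.05, where 15.6% of genes were. Gabrb1, 1 of these 4, was then at 0.15 (adjusted p = 0.107), after 0.10 with all libraries (adjusted p = 0.326). By DESeq2, 6 were under 0.05, where 16.1% of all genes were, and 2 of the 27 passed, Pvalb (adjusted p = 0.0303) and Gad2 (adjusted p = 0.0425), where 3.07% of all genes did. By edgeR, Pvalb passed without naive mutant male 1 (-0.22, adjusted p = 0.0393), WT male 3 at 1 h (-0.22, adjusted p = 0.0366) or WT female 3 at 3 h (-0.21, adjusted p = 0.0487), and Gad2 without WT male 1 at 1 h (0.18, adjusted p = 0.0314), in fits where 1.32% to 2.01% of all genes passed.

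Over the 3 times together, log2 fold changes of the 27 genes had a median of 0.02 against 0.00 for all genes, and 17 of 27 were higher, where 50.3% of all genes were. Without the 5 libraries the median was 0.00 and 14 of 27 were higher. A p above the threshold does not show that these genes were equal in both genotypes.

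**Figure D4:**
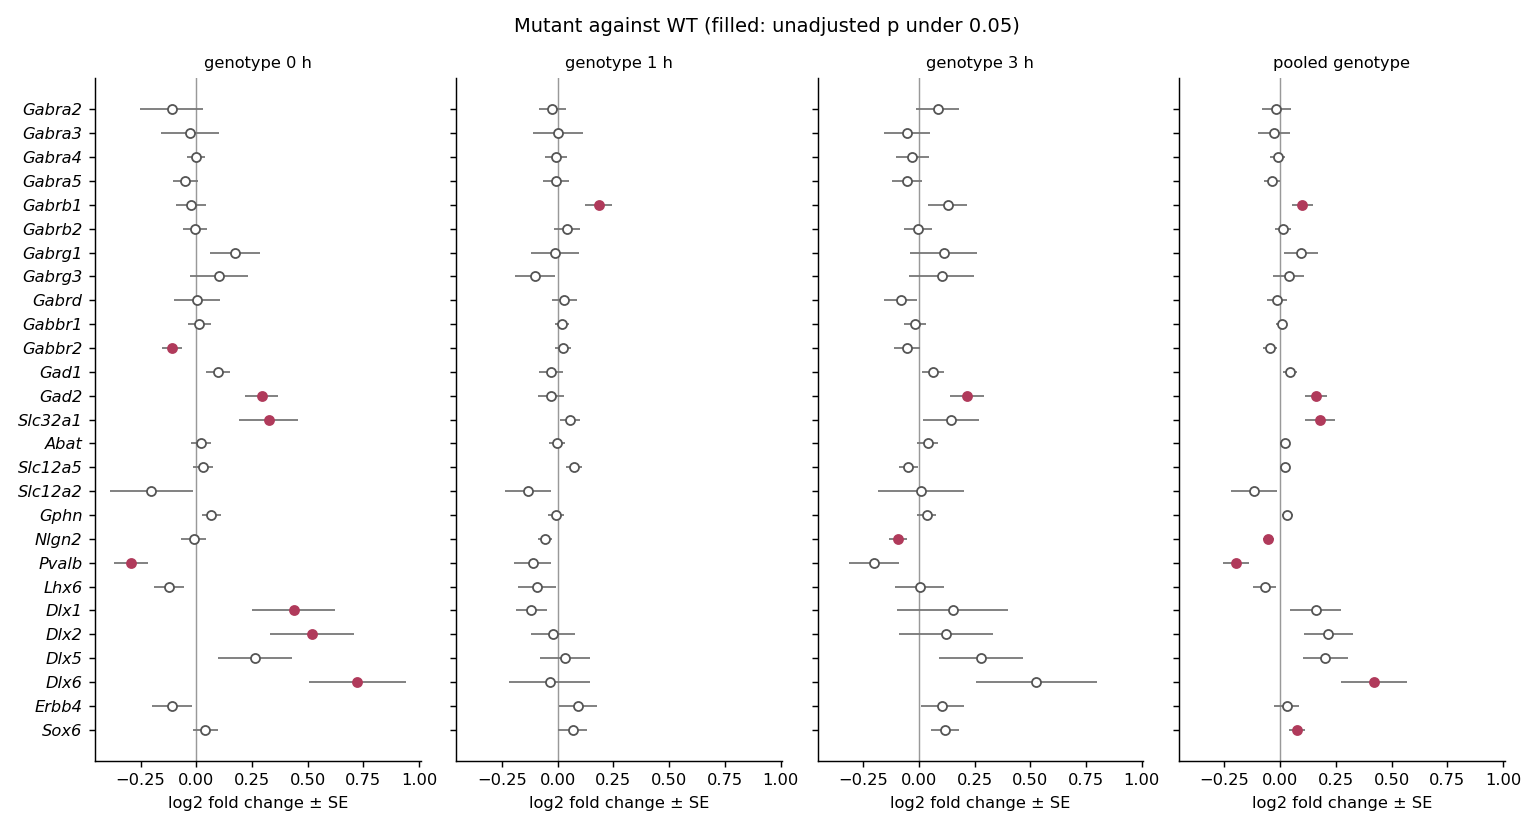
Log2 fold change (mutant against WT) with its SE for each of the 27 genes at 0, 1 and 3 h and over the 3 times together, with filled points for an unadjusted p under 0.05. At 0 h the Dlx genes, Gad2 and Slc32a1 lie to the right and Pvalb to the left, at 1 h all lie between -0.13 and 0.18, and none passes the adjusted p in any panel.

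In WT mice at 1 h against 0 h, log2 fold changes of the 27 genes ran from -0.16 to 0.13. By edgeR 0 of 27 were under an unadjusted p of 0.05, where 5.36% of 17319 genes were, and 0% (0 genes) passed the adjusted p. By DESeq2 0 of 27 were under 0.05 too, where 6.18% of all genes were and 0.052% passed. The 3 smallest p were those of Gabrg1 (-0.16, SE 0.10, adjusted p = 0.926), Dlx1 (0.13, SE 0.09, adjusted p = 0.926) and Gad2 (0.08, SE 0.06, adjusted p = 0.932). Without WT male 3 at 1 h 1 of 27 was under 0.05, and without WT female 1 at 1 h 2 were, where 4.59% and 5.04% of all genes were.

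At 3 h in WT, Gabrg1 was at 15.8, 17.9 and 20.2 CPM (lowest, median, highest) against 19.8, 20.3 and 22.5 CPM in naive WT. Of the 6 trained mice, 5 were below every naive mouse, and the log2 fold change was -0.21 (SE 0.07, adjusted p = 0.485). Sox6, a transcription factor of interneurons from the medial eminence and of oligodendrocyte precursors, fell short of the threshold too, with 21.0 ± 1.17 CPM against 23.5 ± 1.27 CPM (log2 fold change -0.16, SE 0.06, adjusted p = 0.496). Slc12a5 was at 691.2 ± 24.9 CPM against 638.9 ± 38.5 CPM (0.11, SE 0.05, adjusted p = 0.58). These were the 3 of 27 under an unadjusted p of 0.05, where 8.23% of 17438 genes were, and 0% (0 genes) passed the adjusted p. DESeq2 gave 3 of 27 under 0.05 and 0 passing, where 9.14% and 0.459% of all genes were.

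In mutants at 1 h, 8 of 27 genes were under an unadjusted p of 0.05, 6 lower and 2 higher, where 11.1% of 17282 genes were. None of the 27 passed the adjusted p, which 0.312% of all genes did. Dlx6 was at 1.31, 1.94 and 2.45 CPM (lowest, median, highest) at 1 h against 1.93, 3.32 and 5.17 CPM in naive mutants, a log2 fold change of -0.85 (SE 0.26, adjusted p = 0.226, and adjusted p = 0.0464 by DESeq2, which gave 8 under 0.05 and 1 passing, where 11.9% and 2.14% of all genes were). Gad2 was at 189.2 ± 9.78 CPM against 223.2 ± 29.3 CPM (-0.24, SE 0.08, adjusted p = 0.234). Gabbr2 was at 243.0 ± 8.29 CPM against 225.1 ± 9.42 CPM (0.11, SE 0.04, adjusted p = 0.256), and 5 of the 6 trained mutants exceeded every naive one. Slc12a5 was at 680.9 to 724.8 CPM at 1 h and at 637.3 to 671.4 CPM at 0 h, so its groups did not overlap, as for 1.36% of all genes tested here. It was the 1 such case among the 27 genes over the 7 comparisons of 12 libraries, in which 0.535% of all genes tested had groups that did not overlap.

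Without the naive and 1 h mutants high in thalamus markers, 2 of 27 genes were under 0.05, where 9.79% of all genes were, and 1 of the 2, Gabbr2 (0.10, adjusted p = 0.498), was among the 8. The Dlx6 change was then -0.27 (adjusted p = 0.734) and that of Gad2 -0.04 (adjusted p = 0.829). Slc12a5 kept its size and left the count (0.09 after 0.08, adjusted p = 0.517). The sign turned for Dlx1 (-0.42 to 0.09), Dlx2 (-0.44 to 0.05) and Slc32a1 (-0.29 to 0.04). Of single libraries, leaving out naive mutant female 2 or mutant male 3 at 1 h left a count of 4, where 11.9% and 9.43% of all genes were under 0.05, and leaving out naive mutant male 3 or mutant female 1 at 1 h left a count of 5, where 8.86% and 10.1% were.

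At 3 h in mutants, Gabra3 was at 46.7 ± 5.02 CPM against 52.8 ± 2.89 CPM (log2 fold change -0.18, SE 0.07, adjusted p = 0.49). Gabbr2 was at 246.9 ± 21.8 CPM against 225.1 ± 9.42 CPM (0.14, SE 0.06, adjusted p = 0.541), and Slc12a2 differed by 0.21 (SE 0.14, adjusted p = 0.745). The first 2 were those under an unadjusted p of 0.05 among the 27, where 8.57% of 17285 genes were, and 0% (0 genes) passed the adjusted p. DESeq2 also gave 2 under 0.05 and 0 passing, where 9.45% and 0.822% of all genes were. Without the 4 libraries of this comparison high in thalamus markers, Gabbr2 alone of the 27 was under 0.05 (0.18, adjusted p = 0.43), where 7.64% of all genes were, Gabra3 was at -0.16 (adjusted p = 0.695), and 15 of 27 were higher where 9 had been. Without mutant female 2 at 3 h, 9 of the 27 were under 0.05, where 11.2% of all genes were, without naive mutant male 2, 0 were, where 8.58% of all genes were, and without naive mutant male 1 or 3 or mutant male 2, male 3 or female 1 at 3 h, 1 was, where 6.33% to 8.45% of all genes were.

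**Figure D5:**
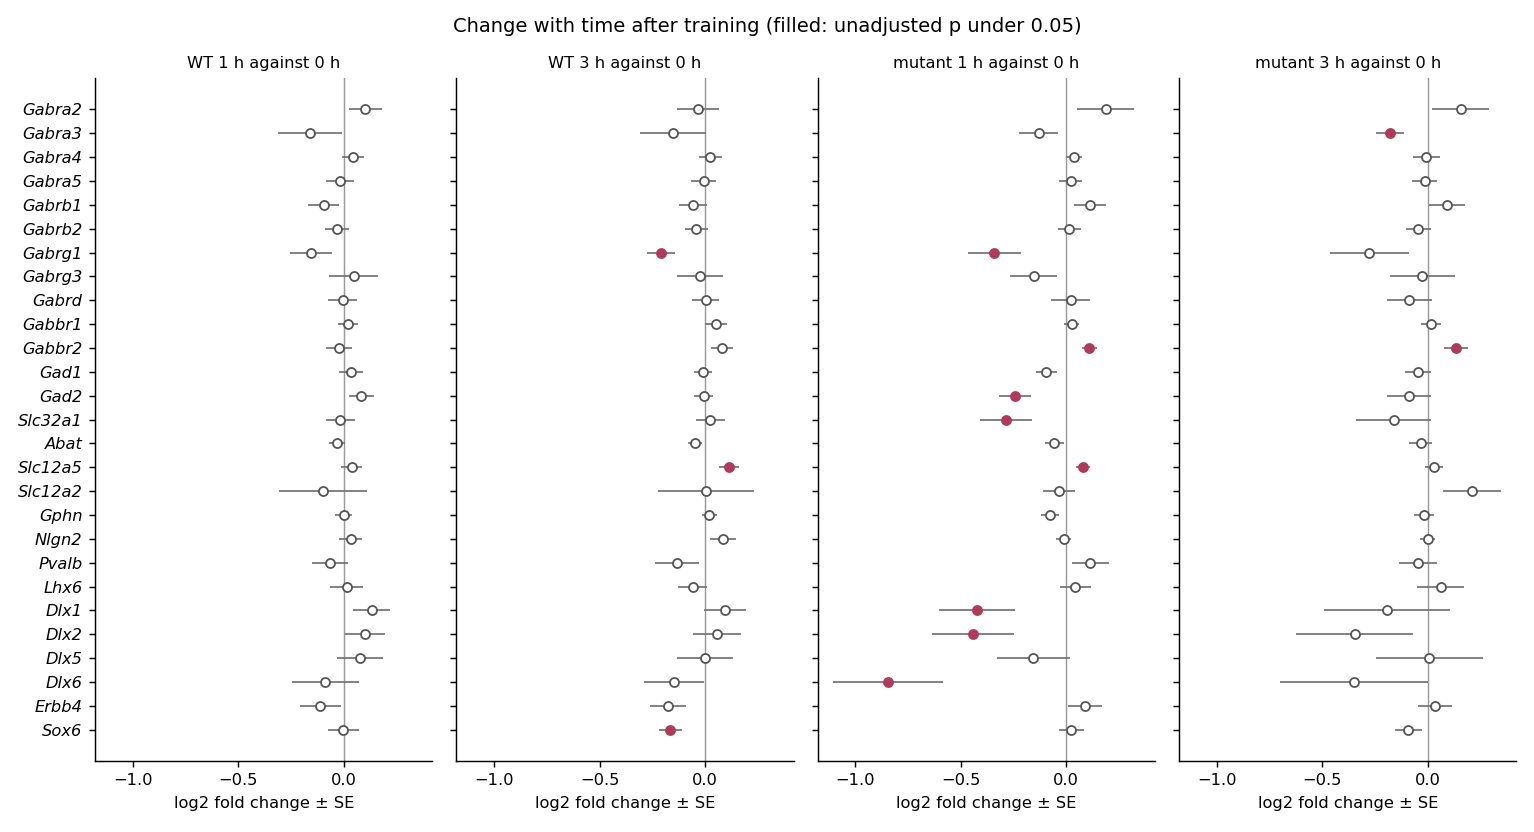
Log2 fold change against naive mice of the same genotype, with its SE, for each of the 27 genes in WT and mutants at 1 and 3 h, with filled points for an unadjusted p under 0.05. The mutants at 1 h hold 8 filled points, among them Dlx1, Dlx2 and Dlx6, the last at -0.85, and WT at 1 h none.

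Both genotypes together, Sox6 was 0.13 lower at 3 h than at 0 h on the log2 scale (log2 fold change -0.13, SE 0.04, adjusted p = 0.108), Gabbr2 higher by 0.11 (SE 0.04, adjusted p = 0.129) and Gabrg1 lower (-0.24, SE 0.09, adjusted p = 0.171). With Slc12a5 (0.07), these were the 4 of 27 under an unadjusted p of 0.05, where 16% of 18186 genes were, and 0 of 27 passed the adjusted p, which 2.6% of genes did. The same 4 were under 0.05 without the 5 libraries, where 14.6% of all genes were. By DESeq2, 5 were under 0.05, where 16.5% of all genes were, and 0 passed, where 4.51% did. Left out of the fit, mutant female 2 at 3 h took 3 genes past the adjusted p: Gabrg1 (-0.33, adjusted p = 0.0162), Gabbr2 (0.13, adjusted p = 0.0313) and Sox6 (-0.15, adjusted p = 0.0465). Gabbr2 passed without naive WT female 3 as well (0.13, adjusted p = 0.0489). Of all genes, 3.64% and 2.61% passed in these fits.

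At 1 h, both genotypes together, Gabrg1 (-0.25, SE 0.09, adjusted p = 0.225), Dlx6 (-0.47, SE 0.18, adjusted p = 0.237) and Slc12a5 (0.06, SE 0.03, adjusted p = 0.34) were the 3 of 27 under an unadjusted p of 0.05, where 12.7% of genes were. Of all genes 1.28% passed the adjusted p, and 0 of the 27 did. DESeq2 gave 3 under 0.05 and 0 passing, where 13.3% and 2.28% of all genes were. Without the 5 libraries 0 of the 27 were under 0.05, where 11.5% of all genes were. Without the 2 libraries of discordant sex, 5 were under 0.05 (1 higher, 4 lower) and 0 passed, where 14.6% and 2.29% of all genes were.

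Whether the response to training differed between genotypes was tested as an interaction. At 1 h, Gad2 (-0.33, SE 0.10), Dlx1 (-0.56, SE 0.20), Dlx2 (-0.55, SE 0.22) and Dlx6 were the 4 of 27 under an unadjusted p of 0.05, all more negative in mutants, where 3.78% of 17907 genes were. The adjusted p was 0.999 for each, 0% (0 genes) of all genes passed it, and DESeq2 gave 4 under 0.05 and 0 passing, where 4.12% and 0% of all genes were. Without the 5 libraries 0 of 27 were under 0.05, where 3.45% of genes were, and Gad2 differed by -0.15 (adjusted p = 0.999). The 3 h response gave its smallest p to Erbb4 (0.21, SE 0.14), Slc12a5 (-0.08, SE 0.06) and Dlx2 (-0.41, SE 0.30), with an adjusted p of 1.0 for each. By edgeR 0 of 27 were under 0.05, where 1.52% of 17926 genes were, and 0% (0 genes) passed the adjusted p. By DESeq2 0 of 27 were under 0.05 as well, where 1.63% of all genes were. Without the 2 libraries of discordant sex, 5 of 27 were under 0.05 (1 higher, 4 lower) and 0 passed, where 2.17% of genes were under 0.05. These comparisons share the naive libraries, so their values are not independent of those at 0 h.

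Deviations of each library from its group mean were then compared with those of Gad1, over 36 libraries. Gad2 followed Gad1 most closely, with a Pearson r of 0.80 and a Spearman rho of 0.81 (permutation within groups, p = 1e-05, the smallest these permutations can give, and adjusted p = 0.00016 over 16 relations, for each). Slc32a1 (r = 0.63, rho = 0.62, adjusted p = 0.00357 and 0.00416), Dlx5 (r = 0.63, rho = 0.69, adjusted p = 0.00168 and 0.0004), Dlx6 (r = 0.62, rho = 0.56, adjusted p = 0.0048 and 0.0129) and Dlx2 (r = 0.54, rho = 0.52, adjusted p = 0.0114 and 0.0179) passed by both measures. Dlx1 passed by r (0.53, adjusted p = 0.0198) and not by rho (0.42, adjusted p = 0.0837). Pvalb (r = 0.24), Lhx6 (r = 0.09), Erbb4 (r = -0.08) and Sox6 (r = 0.22) did not pass, with adjusted p of 0.399 to 0.731. Nor did any of the 6 marker lists, with r between -0.21 for choroid plexus and 0.21 for striatum and thalamus. Each list entered here as the mean log2 CPM of its markers, and not as the summed CPM used above. All values of 1 library share its depth and its dissection.

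These relations rested in part on few libraries. Without the 2 libraries farthest from the median of Gad1, r stayed at 0.80 for Gad2 and was 0.54 for Slc32a1, 0.50 for Dlx5, 0.52 for Dlx6, 0.41 for Dlx2 and 0.41 for Dlx1, with Gad2 alone past the adjusted p. Without the 5 libraries high in thalamus markers, r was 0.69 for Gad2 (adjusted p = 0.02), 0.55 for Lhx6 (adjusted p = 0.0457), 0.38 for Dlx5, 0.32 for Slc32a1, 0.31 for Dlx6, 0.17 for Dlx2 and 0.07 for Dlx1. In male libraries alone (n = 18) r was 0.74 for Gad2, 0.68 for Slc32a1 and 0.29 for Lhx6, and in female libraries (n = 18) 0.83, 0.65 and -0.02. None of the 16 relations passed in males (permutation, adjusted p = 0.303 for Gad2 and 0.173 for Slc32a1), and in females Gad2 passed (adjusted p = 0.0014) and Slc32a1 did not (adjusted p = 0.135).

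Of 48 other genes of GABA transport, receptor trafficking and interneuron subtypes, 45 to 48 were tested in each comparison. In the genotype comparisons 0 passed the adjusted p, with 1, 2, 3 and 8 under an unadjusted p of 0.05 at 0, 1 and 3 h and over all times, where 6.15%, 8.61%, 6.36% and 15.2% of all genes were. The smallest p of the last was that of Nos1, the neuronal nitric oxide synthase of an interneuron class (log2 fold change -0.27, SE 0.08, adjusted p = 0.0729). At 3 h against 0 h in both genotypes together, 2 passed, where 2.6% of all genes did. The alternative settings, and fits without the libraries high in thalamus markers, were not examined for these 48 genes. Plcl1, which codes for PRIP1, a protein involved in trafficking of GABA-A receptors, was at 59.3 ± 8.33, 64.8 ± 4.36 and 71.7 ± 7.47 CPM in WT at 0, 1 and 3 h. In mutants it was at 59.5 ± 5.02, 64.4 ± 4.60 and 76.6 ± 6.19 CPM. It rose by 0.32 (SE 0.05, adjusted p = 0.00103). In mutants all 6 libraries at 3 h lay above all 6 at 0 h (67.9 to 86.7 against 52.6 to 67.3 CPM). Groups did not overlap for 0.521% of all genes in that comparison. In WT the Plcl1 groups overlapped (59.67 to 80.66 CPM at 3 h against 49.85 to 70.05 CPM at 0 h). Shisa7, an auxiliary subunit of GABA-A receptors, was at 259.3 ± 23.8 CPM in WT at 0 h and 295.0 ± 18.0 at 3 h, and at 260.6 ± 28.3 and 303.2 ± 27.2 CPM in mutants, and rose by 0.20 (SE 0.05, adjusted p = 0.0254).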

How the data were processed

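Poly(A) RNA from dorsal hippocampus was sequenced as paired reads. Per the labels and methods, the authors aligned reads to mm10 with STAR 2.7.8a and made raw counts per gene with featureCounts 2.0.1, and these deposited counts are 1 file per library, without normalization. Annotation, strand setting and treatment of multi-mapping reads are not given in the sources used here, so overlapping or antisense genes may share reads. An earlier cohort of naive mice was not analysed here.

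Groups were taken from the labels. Genes were named from RefSeq identifiers, and exon lengths and positions come from GENCODE M21 on GRCm38. Each comparison was fitted on its own libraries (12, 24 for interactions, 36 for the fits over all times, with genotype and time as additive terms) by the quasi-likelihood test of edgeR 4.0.16 (limma 3.58.1, R 4.3.3), with robust dispersion, filterByExpr (minimum count 10), TMM and sex as labelled. P-values were adjusted by Benjamini-Hochberg over all genes tested, and 0.05 was the threshold. CPM are TMM-scaled. The scripts were tested on simulated data. Relations with Gad1 used log2 CPM (prior count 2), two-sided permutation within groups (100000 resamples) and adjustment over 16 relations. The 27 genes, the 48 other genes and the marker lists were chosen with earlier results of these data known. Full statistics are given for genes past the threshold or among the 3 smallest p of a comparison.

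Counts of 0 allow up to 3 reads (95% limit, counting error only). Counts were compared in all 90 pairs of same-group libraries, and 0 pairs were identical. Alternatives were DESeq2 1.42.0, RLE scaling, other filters, sex left out or read from counts, 2 libraries left out for discordant sex, a replicate block, all 36 libraries in 1 fit, and each library left out in turn. As nothing states that same-numbered mice belong together, the block was an alternative only.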

Additional observations from a re-analysis of the deposited data

Results flagged for a closer look

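In groups of 6 libraries, a value was picked out where its gap to the nearest other exceeded, as a share of the range of the group, Dixon's 95% critical value. Among 162 tests (27 genes in 6 groups), 13 values were picked out, where chance picks about 1 in 20 groups. Mutant female 2 at 3 h accounted for 7 of them: Gad2 at 274.2 CPM (others up to 201.9), Slc32a1 at 146.7 (up to 96.5), Gabrg1 at 30.0 (up to 19.4), Dlx1 at 22.0 (up to 12.5), Dlx5 at 8.17 (up to 3.87), Dlx6 at 5.67 (up to 2.48) and, as the only low one of the 7, Gabra5 at 149.8 CPM (others from 177.4). The same library had the highest thalamus marker level of the series (121.8 CPM) and was 1 of the 2 whose sex transcripts did not match the label.

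Among other mutants, all at 1 h, Gabra2 was at 172.2 CPM in male 1 (others up to 150.0), Gabra5 at 202.3 CPM and Slc12a5 at 724.8 CPM in male 3 (others up to 180.3 and 692.9), and Gad2 at 208.5 CPM in female 2 (others up to 187.2). In WT, Gabrb1 was at 43.3 CPM in male 3 at 1 h (others up to 34.2), the library through which the genotypes overlapped at that time, and Erbb4, a neuregulin receptor of interneurons, was low at 17.6 CPM in female 2 at 3 h (others from 22.5).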

How the results depend on the processing

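Of 113 counts of genes past the adjusted p under settings other than leaving out 1 library, 109 stayed at 0. By DESeq2 1 gene passed in mutants at 1 h (Dlx6) and 2 between genotypes over all times (Pvalb and Gad2). Without the 2 libraries of discordant sex, 1 passed between genotypes over all times (Gad2, 0.15, adjusted p = 0.0348), where 2.77% of all genes did, and 3 at 3 h against 0 h in both genotypes together (Gabrg1, Gabbr2 and Sox6), where 3.75% did. Leaving out each library in turn gave 0 to 1 genes between genotypes over all times and 0 to 3 at 3 h against 0 h in both genotypes together, and 0 in the 7 comparisons of 12 libraries. The 1 was Pvalb without naive mutant male 1, WT male 3 at 1 h or WT female 3 at 3 h. It was Gad2 without WT male 1 at 1 h, a library of discordant sex. At 3 h against 0 h it was 3 without mutant female 2 at 3 h and 1 (Gabbr2) without naive WT female 3. Of the genes under an unadjusted p of 0.05, Dlx1 at 0 h between genotypes (-0.03) and Dlx1 (0.09), Dlx2 (0.05) and Slc32a1 (0.04) in mutants at 1 h turned without the 5 libraries high in thalamus markers, and none turned under the other alternatives. With the replicate number as a replicate block, 0 genes passed in any comparison, and 5, 1 and 2 were under an unadjusted p of 0.05 between genotypes at 0, 1 and 3 h and 6 over all times. Deviations of same-numbered libraries correlated by -0.36 to 0.36 over the 7 comparisons, with 2 to 4 of 6 pairs over 0.1 in each, so not every pair deviated together, and 0 to 4 of 6 libraries correlated best with their own number. Leaving out 1 library moved the count of genes under an unadjusted p of 0.05 from 7 to between 5 and 10 for genotype at 0 h, from 8 to between 4 and 9 in mutants at 1 h, from 2 to between 0 and 9 in mutants at 3 h, from 1 to at most 2 and from 2 to between 1 and 4 for genotype at 1 and 3 h, and from 0 to at most 2 in WT at 1 h. The share of all genes under 0.05 in these fits ran from 4.23% to 9.04% for genotype at 0 h. In mutants at 1 and 3 h it was 8.86% to 12% and 6.33% to 11.2%. For genotype at 1 and 3 h it was 7.34% to 10.3% and 4.86% to 8.06%, and in WT at 1 h 3.74% to 7.02%. For genotype over all times the count went from 7 to 4 without WT female 2 or mutant male 2 at 3 h. In either fit 14.5% of all genes were under 0.05. For both genotypes at 3 h the count went from 4 to 7 without mutant female 2 at 3 h, where 17.2% were. The cause was not tested.

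Of the 16 relations with Gad1, 6 passed an adjusted p of 0.05. This was 1 without the 2 libraries farthest from the median, 3 without those of discordant sex and 2 without the 5 high in thalamus markers, which had fewer libraries. Signs of relations that did not pass turned without the 5 for Erbb4 (r = 0.042), Sox6 (-0.014) and the lists of striatum (-0.234), thalamus (-0.152), neocortex (0.077) and oligodendrocytes (-0.239), and without those of discordant sex for Erbb4 (0.033) and oligodendrocytes (-0.076). At these depths every one of the 27 genes had at least 88 counts in each library. Counting error was not compared with the spread between mice.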

Other observations

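Among the 48 other GABA and interneuron genes, Nxph1, which codes for the neurexin ligand neurexophilin 1 and is expressed by interneurons, came nearest to the threshold at 1 h against 0 h in both genotypes together. It was at 24.3 ± 2.66, 22.7 ± 1.33 and 22.5 ± 1.6 CPM in WT (SD, n = 6) and at 26.7 ± 1.53, 23.3 ± 1.5 and 23.9 ± 0.827 CPM in mutants at 0, 1 and 3 h. Log2 fold changes were -0.15 at 1 h (SE 0.04, adjusted p = 0.0672) and -0.14 at 3 h (SE 0.04, adjusted p = 0.0691, edgeR), so neither passed.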
